A study of Mus musculus with 60 samples.

Results

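The genes described here are 9 members of the Notch signalling pathway of the mouse, namely the receptors Notch1, Notch2 and Notch3, the ligands Jag1 and Jag2, and the target genes Hes1, Hey1, Heyl and Nrarp. They were taken by name out of 19355 genes listed for cultured cells and 17473 genes listed for liver. The study cultured hepatocytes of adult wild-type (WT) C57BL/6 mice with IL6 in a medium that also held EGF and HGF, and named the proliferating cells IL6-induced hepatic progenitor cells (IL6-iHPCs). The IL6-iHPCs were then moved to a maturation medium with oncostatin M and dexamethasone to give IL6-induced mature hepatocytes (IL6-iMHs). Livers of adult WT C57BL/6 mice were collected without surgery (Normal liver) or after 2/3 partial hepatectomy (PHX), the removal of most of the liver mass, which is followed by regrowth. Poly(A) RNA was sequenced in 33 cell samples of 11 groups and 18 liver samples of 6 groups, with 3 samples in each group.

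The cell groups were freshly isolated hepatocytes, first cultures (passage 0) after 3 and 14 days in IL6 (IL6-iHPCs-D3 and IL6-iHPCs-D14), and 4 passaged lines. The lines were IL6-iHPCs of mouse-1 at passage 10 and at passage 35, of mouse-2 at passage 10, and clone-1 at passage 20, which is a single clone grown from 1 hepatocyte, and each line also had a group of IL6-iMHs. The single-cell clones that the paper describes came from mice carrying Albumin-Cre and a tdTomato reporter. The titles of the sequenced clone-1 samples do not give this genotype. The study described the 3 samples of a cell group as technical repeats. The liver groups were taken 6 h, 24 h, 3 days, 7 days and 14 days after PHX, and no source used here says whether the 3 samples of a liver group came from 3 animals. All p-values therefore measure the spread between these samples, which may be technical.

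Notch receptors are membrane proteins that are cut after they bind a ligand on a neighbouring cell. The freed intracellular domain enters the nucleus, joins the DNA-binding protein Rbpj and the Mastermind coactivators, and turns on target genes, among them repressors of the Hes and Hey families. In the liver the pathway is known for its part in forming bile ducts, where Jag1 and Notch2 are required, and Notch1 and Dll4 are also used by endothelial cells.

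On the mm10 (GRCm38) assembly and its GENCODE annotation, Notch1 spans chr2:26457903-26516663 on the minus strand, Notch2 spans chr3:98013527-98150361 on the plus strand and Notch3 spans chr17:32120820-32166852 on the minus strand. Jag1 spans chr2:137081456-137116644 on the minus strand and Jag2 spans chr12:112907819-112929776 on the minus strand. Among the targets, Hes1 spans chr16:30064384-30067796 on the plus strand, Hey1 spans chr3:8663359-8667256 on the minus strand, Heyl spans chr4:123233556-123249875 on the plus strand and Nrarp spans chr2:25180758-25183339 on the plus strand. Each value is for a gene as a whole rather than for a single transcript. The spans of genes on the opposite strand overlap those of Notch1 (0610009E02Rik and Gm13568), Notch3 (Gm17276) and Nrarp (Gm38287). Whether their exons overlap was not examined. Counting by strand is not stated in the sources used here, so reads from any shared exonic bases cannot be told apart.

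The promoters of Notch1, Notch2 and Jag1 are shown because these 3 genes were higher in every cultured group than in hepatocytes, and that of Nrarp because it was not. The sequences are RefSeq's on GRCm38.p6 and hold the bases just before the gene's start, 5′ to 3′ on the gene's strand, with bases that the annotation places in an exon left out. The windows are chr2:26503825-26504072 (minus strand) for Notch1, which lies in an intron of a longer annotated transcript, chr3:98013288-98013526 (plus strand) for Notch2, chr2:137116645-137116770 (minus strand) for Jag1 and chr2:25180508-25180757 (plus strand) for Nrarp.
Notch1: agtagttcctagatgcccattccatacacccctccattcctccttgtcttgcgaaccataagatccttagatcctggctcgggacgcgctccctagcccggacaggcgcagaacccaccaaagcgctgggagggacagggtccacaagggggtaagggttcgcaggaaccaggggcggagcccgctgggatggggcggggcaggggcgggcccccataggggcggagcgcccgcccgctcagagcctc
Notch2: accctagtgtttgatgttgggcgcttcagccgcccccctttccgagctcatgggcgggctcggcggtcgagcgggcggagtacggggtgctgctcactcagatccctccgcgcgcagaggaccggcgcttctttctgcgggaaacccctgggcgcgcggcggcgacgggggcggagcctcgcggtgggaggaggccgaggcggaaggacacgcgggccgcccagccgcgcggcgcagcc
Jag1: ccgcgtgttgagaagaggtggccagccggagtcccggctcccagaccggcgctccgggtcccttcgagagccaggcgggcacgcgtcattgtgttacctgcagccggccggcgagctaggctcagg
Nrarp: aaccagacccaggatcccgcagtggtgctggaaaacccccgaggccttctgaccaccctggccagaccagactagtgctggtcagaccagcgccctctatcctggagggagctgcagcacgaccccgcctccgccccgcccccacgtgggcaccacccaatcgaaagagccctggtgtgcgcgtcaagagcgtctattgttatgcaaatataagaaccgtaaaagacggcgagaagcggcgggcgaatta
The core of the sequence bound by Rbpj, TGGGAA on either strand (TTCCCA on the other), was searched in the 250 bases before the start. It was present in 21.6% of all 32851 promoters in the RefSeq table and in 0 of the 6 members with an entry, so nothing is in capitals. Hes1, Hey1 and Heyl had no entry. The absence says only that these letters are not in these windows.

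All levels are FPKM (reads scaled to the length of the gene and the size of the library, so that genes can be compared per length). Differences are on the log2(FPKM + 1) scale, which understates changes of genes with low levels. A member was tested where it reached 1 FPKM in at least 3 samples, and was called higher or lower where the limma adjusted p was under 0.05 and the difference reached 2-fold. This left 6 of 9 members in cells (all but Notch3, Hey1 and Heyl) and 4 of 9 in liver (Notch1, Notch2, Hes1 and Nrarp), and a member that passed only through the group where it was high had to differ. In cells Jag2 reached 1 FPKM only in the 6 IL6-iHPC samples of clone-1 and mouse-1 passage 35, and Nrarp in 8 samples of the same 2 lines or of IL6-iMHs-clone-1, so that the differences of Jag2 on passaging and maturation are given with no p. The other members are given by their reads, as whole reads were recovered from the FPKM steps.

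Several facts of the whole series bear on every cell result. Depth was 49290999 to 88832909 reads in cells and 52039183 to 79220592 reads in liver. The summed level of 8 hepatocyte markers was 76404 to 82495 FPKM in hepatocytes and 601 to 716 at D3. For IL6-iMHs the sum was 60094 to 81433, which overlapped the hepatocytes, and for the passaged IL6-iHPCs it was 1884 to 9640. The median of all genes tested was also higher than in hepatocytes, by 1.14 on the log2 scale at D3 and by 1.00 at D14. By this median the passaged IL6-iHPCs lay 0.93 above hepatocytes, while IL6-iMHs lay 0.46 above them. A link between the marker sums and these medians was not tested. With quantile normalization, the share of called genes that were higher at D3 went from 81.6% to 53.6%. The freshly isolated hepatocytes also held transcripts of other liver cells, with a summed level of 12 endothelial markers of 22.3 to 24.4 FPKM, against 10.9 to 13.1 at D3, with all 12 detected in both, and at most 1.85 in any passaged line, where 3 to 5 of the 12 were at 0 in IL6-iHPCs. The part of these shifts in the results below was not tested.

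The 2 sets of samples labelled clone-1 do not match each other. Reads of 4 Y-linked genes (Ddx3y, Uty, Kdm5d and Eif2s3y) numbered 994 to 1550 in hepatocytes, 9185 to 18444 in the D3 and D14 samples and 6575 to 9095 in IL6-iHPCs-clone-1, but 0 in all IL6-iMHs, those labelled clone-1 among them, and at most 2 in the mouse-1 and mouse-2 IL6-iHPCs. Averages over the lines are therefore given with and without clone-1 where a call rests on it, and the samples labelled IL6-iMHs-clone-1 cannot be taken as matured from IL6-iHPCs-clone-1. The mouse-1 and mouse-2 lines and all IL6-iMHs, with at most 2 such reads, are also compared with hepatocytes that carry them. In these comparisons a difference of donor or sex cannot be told apart from that of culture.

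The first comparison asked how the receptors changed as hepatocytes entered culture with IL6. Both Notch1 and Notch2 were low in hepatocytes and rose by D3. Notch2, the receptor needed for bile duct formation, was 1.72, 2.11 and 1.24 FPKM in the 3 hepatocyte samples, 39.5, 36.4 and 39.4 FPKM at D3 and 38.8, 37.7 and 37.7 FPKM at D14. Notch1 was 0.543, 0.555 and 0.297 FPKM in hepatocytes, 21.9, 17.0 and 21.6 FPKM at D3 and 22.8, 22.8 and 21.8 FPKM at D14. All culture samples lay above all hepatocyte samples for both receptors, and D3 and D14 overlapped. On the log2 scale Notch1 was higher by 3.85 (SE 0.141, limma adjusted p = 3.71e-21) and Notch2 by 3.88 (SE 0.146, limma adjusted p = 7.55e-21) at D3. In these bulk samples, more cells that carry a transcript and more transcript per cell cannot be told apart. The summed level of 8 biliary markers, a list that holds none of the members, was also higher in culture. It was 2.31 to 3.02 FPKM in hepatocytes, with Krt7 and Cftr at 0, 335 to 509.9 FPKM at D3, 4000 to 4427 FPKM at D14, 2695 to 10951 FPKM in the passaged IL6-iHPCs and 199.7 to 1405 FPKM in IL6-iMHs. Its part in the values of the receptors and of Jag1 was not tested.

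At D3, 4 of the 6 members tested were called higher and none lower, where 66.0% of all genes tested were called (53.9% higher and 12.1% lower). At D14 the same 4 members (Notch1, Notch2, Jag1 and Hes1) were called higher, beside 62.9% of all genes (50.0% higher and 12.9% lower). Notch1, Notch2 and Jag1 kept their calls at D3 and D14 with quantile normalization and with equal medians, and with equal medians the Hes1 call at D14 was lost and Nrarp was called lower at both times (-1.35 and -1.23). The median difference of the 6 members was 3.34 at D3 and 2.60 at D14, against 1.14 and 1.00 for all genes. None of the members was called between D14 and D3 by limma, where 10.2% of all genes were (5.12% higher and 5.05% lower), with 3 of the 6, Jag1, Hes1 and Jag2, at an unadjusted p under 0.05. By limma's voom on the recovered reads of genes with at least 10 reads in 3 samples, which takes in Notch3 and Hey1, 7 of 8 members were called higher at D3 and 7 at D14, beside 62.0% and 60.1% of all genes, Nrarp being the exception.

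Notch3, a receptor known mainly from smooth muscle cells and pericytes, had 0 reads in all 3 hepatocyte samples and stayed near or under 1 FPKM in every group, so it was not tested. It had 427 reads at D3 (0.289 ± 0.0191 FPKM, SD, n = 3) and 1563 reads in mouse-2 passage 10 IL6-iHPCs (1.00 ± 0.0569 FPKM, SD, n = 3), its highest group. Set against a floor of 3 reads per hepatocyte library, these levels were at least 51.0-fold and 177-fold higher. In IL6-iMHs Notch3 fell to 0.0340 FPKM in mouse-2 and stood at 0.324 FPKM in the samples labelled clone-1. The summed level of 10 stellate and mesenchymal cell markers was 0.882 to 1.28 FPKM in hepatocytes, 1.39 to 1.88 FPKM at D3, 25.7 to 27.2 FPKM at D14, 3.48 to 19.5 FPKM in the passaged IL6-iHPCs (3.68 to 4.59 FPKM in mouse-2) and at most 0.630 FPKM in IL6-iMHs. At most 1 of the 10 averaged 1 FPKM in any cell group, Cygb was at 0 in all passaged lines, and the part of these markers in the Notch3 values was not tested.

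In the passaged lines the balance of the receptors changed. Notch2 was 28.3, 27.7 and 29.8 FPKM in mouse-1 IL6-iHPCs at passage 10 and 16.9, 17.4 and 17.6 FPKM at passage 35. Notch1 went the other way in the same line, from 7.74, 7.37 and 7.94 FPKM at passage 10 to 21.6, 23.9 and 22.4 FPKM at passage 35. The groups did not overlap for either gene. Notch1 was called higher at passage 35 (log2 difference 1.44, SE 0.141, limma adjusted p = 1.42e-10), while Notch2 differed by -0.69 (SE 0.146, limma adjusted p = 8.60e-05) and did not reach 2-fold. Between these passages 33.7% of all genes tested were called (24.8% higher and 8.94% lower), and 2 of the 6 members, Notch1 and Nrarp. Which members were called depended on the scaling. With quantile normalization Notch1 was called higher (1.09), Notch2 (-1.29) and Jag1 (-1.26) were called lower and Nrarp (0.95) fell short of 2-fold. By voom on reads, where 45.7% of all genes were called, Notch1, Notch3 (1.405), Jag2 (1.69) and Nrarp were called higher and Jag1 (-1.12) lower, while Notch2 (-0.72) was not called.

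The ratio of Notch2 to Notch1 within each sample shows the same change per length. It was 3.72 ± 0.508 in hepatocytes, 1.92 ± 0.191 at D3, 1.70 ± 0.0376 at D14 and 3.72 ± 0.0572 in mouse-1 passage 10 (SD, n = 3 each). It was 0.765 ± 0.0316 in mouse-1 passage 35 and 0.660 ± 0.0351 in IL6-iHPCs-clone-1, the 2 IL6-iHPC groups where Notch1 exceeded Notch2, and 0.619 ± 0.0522 in IL6-iMHs of mouse-1 passage 35. Ordered by mean, Notch1 was highest in IL6-iHPCs-clone-1 (24.1 FPKM), mouse-1 passage 35 (22.6 FPKM), D14 (22.5 FPKM) and D3 (20.1 FPKM), and each of these overlapped the next. Notch2 was highest at D3 (38.4 FPKM) and D14 (38.1 FPKM), which overlapped, and then in mouse-1 (28.6 FPKM) and mouse-2 (24.4 FPKM) at passage 10, which did not.

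**Figure D1:**
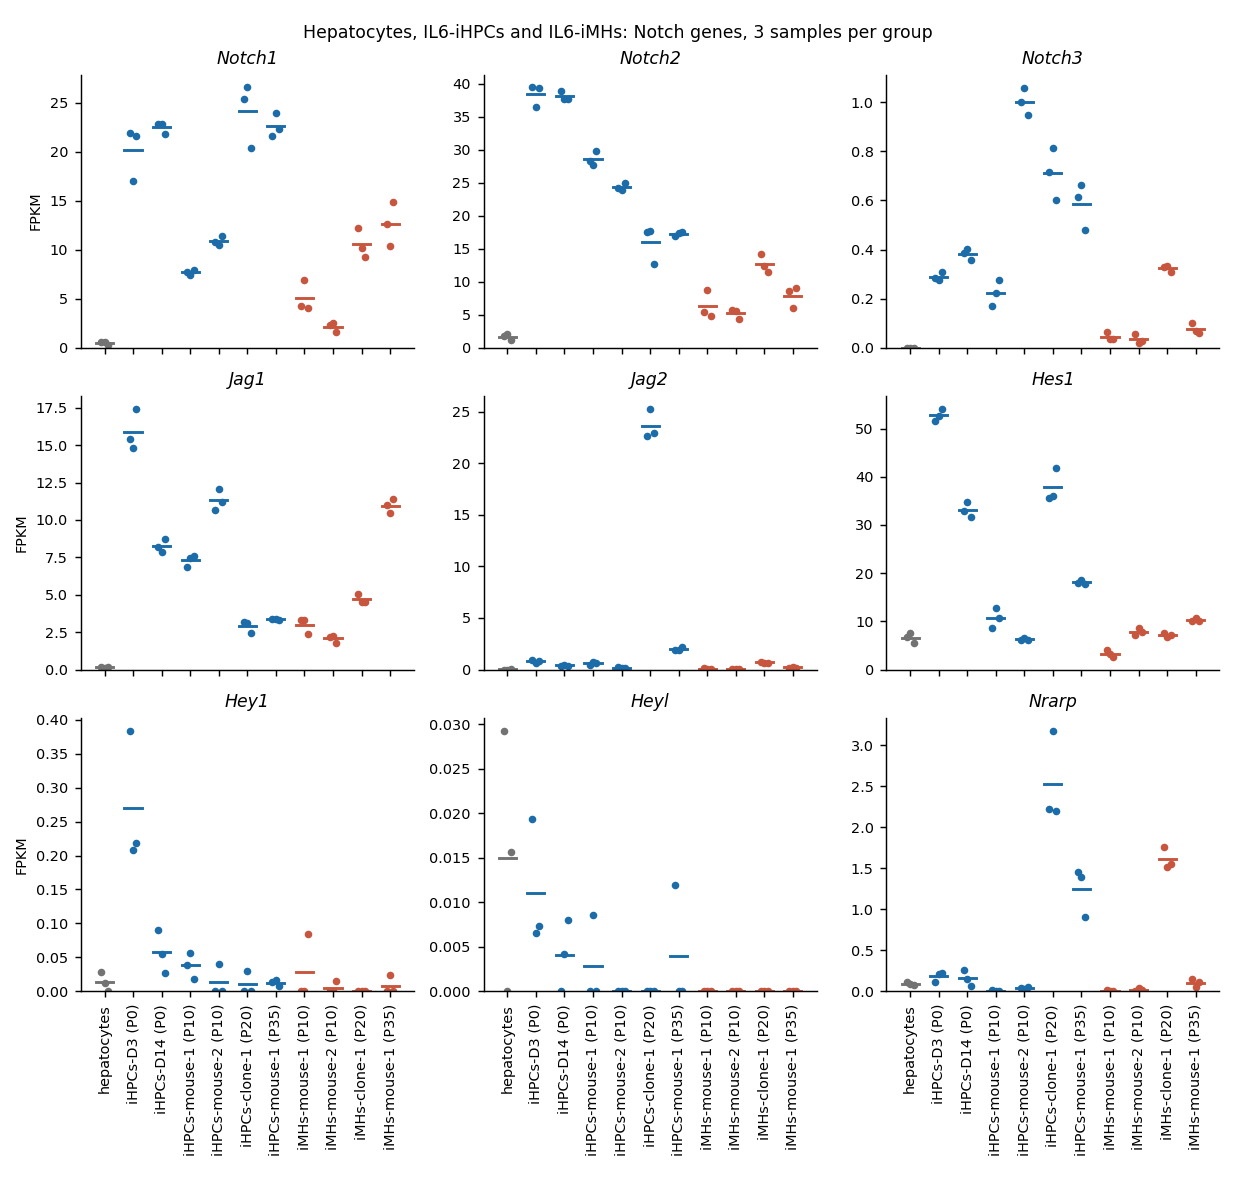
FPKM (linear axis from 0, scaled per gene) of the members in each of the 33 cell samples by group, with a point per sample and a line at the group mean. Notch1, Notch2 and Jag1 lie lowest in hepatocytes, and Jag2 stands out in IL6-iHPCs-clone-1 at 22.7 to 25.3 FPKM.

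Averaged over the 4 passaged lines, 5 of 6 members tested were called higher than in hepatocytes (Notch1, Notch2, Jag1, Jag2 and Hes1), beside 59.4% of all genes (48.1% higher and 11.3% lower). Notch1 was higher by 3.43 (SE 0.111, limma adjusted p = 1.66e-22) and Notch2 by 3.04 (SE 0.116, limma adjusted p = 8.95e-21) on the log2 scale. Without clone-1 the differences were 3.204 and 3.166, and 3 members were called, Jag2 and Hes1 being lost.

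The ligand Jag1, which on a neighbouring cell activates Notch2 in bile duct formation, was highest at D3. It was 0.148, 0.128 and 0.150 FPKM in hepatocytes, 15.4, 14.8 and 17.4 FPKM at D3 and 8.21, 7.86 and 8.76 FPKM at D14. The 3 groups did not overlap. Jag1 was higher by 3.88 at D3 (SE 0.0865, limma adjusted p = 2.23e-26) and by 3.02 at D14 (SE 0.0865, limma adjusted p = 1.04e-23). The D14 level differed from that of D3 by -0.86 on the log2 scale (SE 0.0865, limma adjusted p = 6.75e-10), short of 2-fold.

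Jag1 differed among the passaged lines. It was 6.89, 7.47 and 7.61 FPKM in mouse-1 and 10.7, 12.1 and 11.2 FPKM in mouse-2 at passage 10. In mouse-1 at passage 35 it was 3.39, 3.39 and 3.34 FPKM, and in IL6-iHPCs-clone-1 it was 3.16, 3.12 and 2.42 FPKM. Both passage 10 lines thus lay above the 2 later ones, with no overlap. Over the 4 lines Jag1 was higher than in hepatocytes by 2.4995 (SE 0.0684, limma adjusted p = 2.37e-24), and by 2.74 without clone-1.

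Jag2, the second Jagged ligand, was high in 1 line only among those measured. IL6-iHPCs-clone-1 had 22.7, 25.3 and 23.0 FPKM, and the next group, mouse-1 passage 35, had 1.86, 1.92 and 2.20 FPKM. In hepatocytes 2 reads were found in all 3 samples together, against 19426 reads in IL6-iHPCs-clone-1, a ratio of 9801 after scaling to depth (95% exact interval 2713 to 80936, which covers counting error only). At D3 Jag2 was 0.903, 0.640 and 0.847 FPKM, with a ratio to hepatocytes of 328 (95% exact interval 90.3 to 2711), and its log2 difference of 0.84 did not reach 2-fold on the log2(FPKM + 1) scale. Over the 4 lines Jag2 was higher by 1.77 (SE 0.0501), a direction that the filter fixed, and by 0.82 without clone-1, which is not called.

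The target Hes1, a repressor and a common readout of Notch signalling that other pathways also act on, was present in hepatocytes already. It was 6.81, 7.47 and 5.52 FPKM there, 51.6, 52.7 and 54.1 FPKM at D3 and 32.98, 34.8 and 31.6 FPKM at D14. The 3 groups were apart. Hes1 was higher by 2.83 at D3 (SE 0.106, limma adjusted p = 6.60e-21) and by 2.18 at D14 (SE 0.106, limma adjusted p = 5.52e-18).

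In the passaged lines Hes1 fell into separate levels. IL6-iHPCs-clone-1 had 35.6, 36.0 and 41.8 FPKM and mouse-1 passage 35 had 17.9, 18.6 and 17.8 FPKM. Mouse-1 passage 10 had 8.52, 12.8 and 10.7 FPKM, while mouse-2 passage 10, at 6.12, 6.54 and 6.07 FPKM, overlapped the hepatocytes. Hes1 averaged over the lines was higher than in hepatocytes by 1.06 (SE 0.0838, limma adjusted p = 6.38e-13). This call was lost without clone-1 (0.63) and without hepatocyte sample 3 (0.95), and the sign turned with quantile normalization (-0.02) and with equal medians in all samples (-0.18).

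Nrarp, a feedback inhibitor of Notch that is itself a target, was low in most cells. It was 0.114, 0.0850 and 0.0824 FPKM in hepatocytes and 0.109, 0.206 and 0.227 FPKM at D3, where it differed by 0.11 (SE 0.0804, limma adjusted p = 0.198) and by -0.54 with quantile normalization. IL6-iHPCs-clone-1 had 2.22, 3.18 and 2.20 FPKM, and mouse-1 passage 35 had 1.45, 1.398 and 0.912 FPKM. These 2 lines were the only IL6-iHPC groups above 1 FPKM on average, with ratios to hepatocytes of 26.8 (95% exact interval 20.1 to 36.3) and 13.5 (10.1 to 18.4) in reads. The mouse-1 line at passage 10 had 2 reads in its 3 samples together, and 635 at passage 35. That difference was called, at 1.16 (SE 0.0804, limma adjusted p = 7.86e-14), and the call was lost with quantile normalization (0.95).

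Hey1 and Heyl, repressors of the Hey family, were nearly absent from the cells. Hey1 had 6 reads in hepatocytes and 101 at D3 (0.383, 0.207 and 0.219 FPKM), a ratio of 18.4 (95% exact interval 8.16 to 51.3), and 19 at D14. By voom the difference was 4.29 at D3 (SE 0.863, adjusted p = 3.40e-05) and -2.23 from D3 to D14 (SE 0.718, adjusted p = 0.00770). No other sample group had more than 12 reads of Hey1. Heyl had 13 reads in hepatocytes, 9 at D3 and 0 in all IL6-iMHs.

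**Figure D2:**
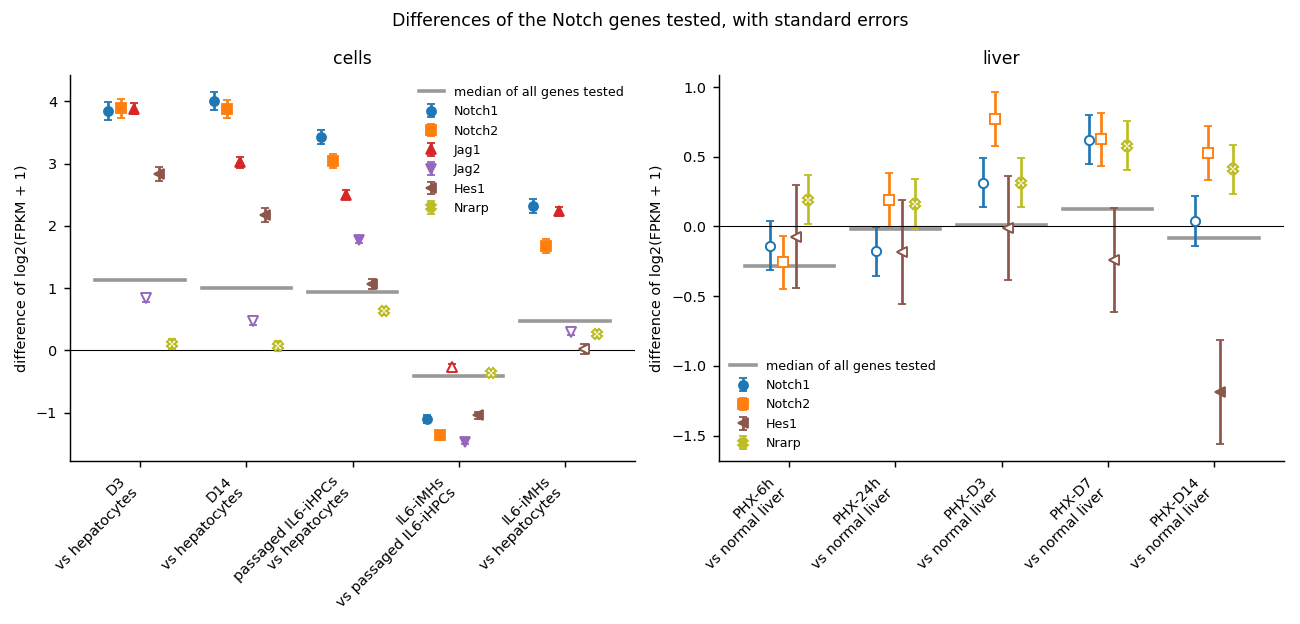
Difference of each tested member on the log2(FPKM + 1) scale in the cell and liver comparisons, with SE bars, filled where called and open where not, and the median of all genes tested as a grey line. In D3 against hepatocytes, Notch1, Notch2 and Jag1 lie at 3.85 to 3.88, well above the line at 1.14.

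Maturation of the passaged IL6-iHPCs to IL6-iMHs was then compared. Averaged over the 4 lines, 4 of 6 members tested were called lower and none higher, beside 28.1% of all genes tested (6.68% higher and 21.4% lower). Notch2 differed by -1.36 on the log2 scale (SE 0.0731, limma adjusted p = 6.63e-17). Notch1 differed by -1.10 (SE 0.0704, limma adjusted p = 4.70e-15) and Hes1 by -1.04 (SE 0.0530, limma adjusted p = 1.77e-17). The count also holds Jag2, at -1.47 (SE 0.0317), whose fall was fixed by the filter, since it was tested only through its high IL6-iHPC samples. The median over all genes was also below zero, at -0.40. Without clone-1 only Notch1 (-1.10) and Notch2 (-1.72) were called, Jag2 (-0.67) and Hes1 (-0.64) falling short of 2-fold. With quantile normalization Jag2 alone was called, and with equal medians none of them.

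The lines differed in how the members changed. For all 6 members tested the change on maturation differed between lines (limma F test, adjusted p from 1.97e-20 to 1.13e-06 for the 5 other than Jag2, whose filter rested on 2 of the lines), as it did for 65.2% of all genes tested with a span of at least 1 on the log2 scale. Of the 6 members, 3 were called lower in mouse-1 passage 10, 3 in mouse-2 and 3 between the samples labelled clone-1, and in mouse-1 passage 35 there were 3 lower and 1 higher. The lower counts of clone-1 and mouse-1 passage 35 include Jag2, whose fall was fixed by the filter, since it was tested only through its high IL6-iHPC samples there. In the same order, 15.4%, 28.6%, 17.7% and 35.1% of all genes were called lower, and 10.2% higher in mouse-1 passage 35. Jag1 was lower in IL6-iMHs of mouse-1 passage 10 (-1.06) and mouse-2 (-2.002) and higher in those of mouse-1 passage 35 (1.45). In mouse-1 passage 35 it went from 3.39, 3.39 and 3.34 FPKM to 11.02, 10.5 and 11.4 FPKM, and in mouse-2 from 10.7, 12.1 and 11.2 FPKM to 2.17, 2.27 and 1.78 FPKM. With quantile normalization the call in mouse-1 passage 10 was lost (-0.74), and those in mouse-2 (-1.30) and mouse-1 passage 35 (2.04) were kept. IL6-iHPCs and IL6-iMHs did not overlap in either of the last 2 lines, and the average over the 4 lines, -0.27, described none of them.

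Notch2 had lower means in IL6-iMHs in all 4 lines and was called in 3, with differences of -2.05 in mouse-1 passage 10, -2.04 in mouse-2 and -1.07 in mouse-1 passage 35. Its levels in IL6-iMHs were 5.47, 8.75 and 4.82 FPKM, then 5.69, 5.54 and 4.42 FPKM, and then 8.53, 5.96 and 9.05 FPKM, in the same order. The samples labelled clone-1 differed by -0.30, from 17.6, 17.6 and 12.7 FPKM to 14.2, 12.3 and 11.4 FPKM, and overlapped. With quantile normalization the Notch2 call of mouse-1 passage 35 was lost (-0.37) and the sign between the samples labelled clone-1 turned (0.16). Notch1 also had lower means in all 4 lines and was called in mouse-2 (-1.94) and clone-1 (-1.12), the latter call being lost with quantile normalization (-0.69). In mouse-2 it was 10.8, 10.4 and 11.4 FPKM in IL6-iHPCs and 2.34, 2.49 and 1.58 FPKM in IL6-iMHs.

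Hes1 moved in both directions. It was lower in mouse-1 passage 10 (-1.44), from 8.52, 12.8 and 10.7 FPKM to 3.99, 3.27 and 2.64 FPKM, and between the samples labelled clone-1 (-2.25), where IL6-iMHs had 7.51, 6.77 and 7.16 FPKM. In mouse-2 the IL6-iMHs had 7.14, 8.53 and 7.87 FPKM, all above the IL6-iHPCs of that line, with a difference of 0.29 (SE 0.106, limma adjusted p = 0.0145) that was not called. Jag2 was lower between the samples labelled clone-1 (-3.87), to 0.739, 0.632 and 0.671 FPKM, and in mouse-1 passage 35 (-1.32). Nrarp was lower in mouse-1 passage 35 (-1.02), to 0.155, 0.0523 and 0.112 FPKM, and was 1.76, 1.51 and 1.55 FPKM in the samples labelled IL6-iMHs-clone-1. With quantile normalization the call of Nrarp in mouse-1 passage 35 (-0.71) was lost, while those of Hes1 in mouse-1 passage 10 (-1.17) and clone-1 (-1.85) were kept. Jag2 then differed by -0.86 in mouse-1 passage 35, short of 2-fold, and by -3.46 in clone-1, both in a direction that the filter fixed.

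**Figure D3:**
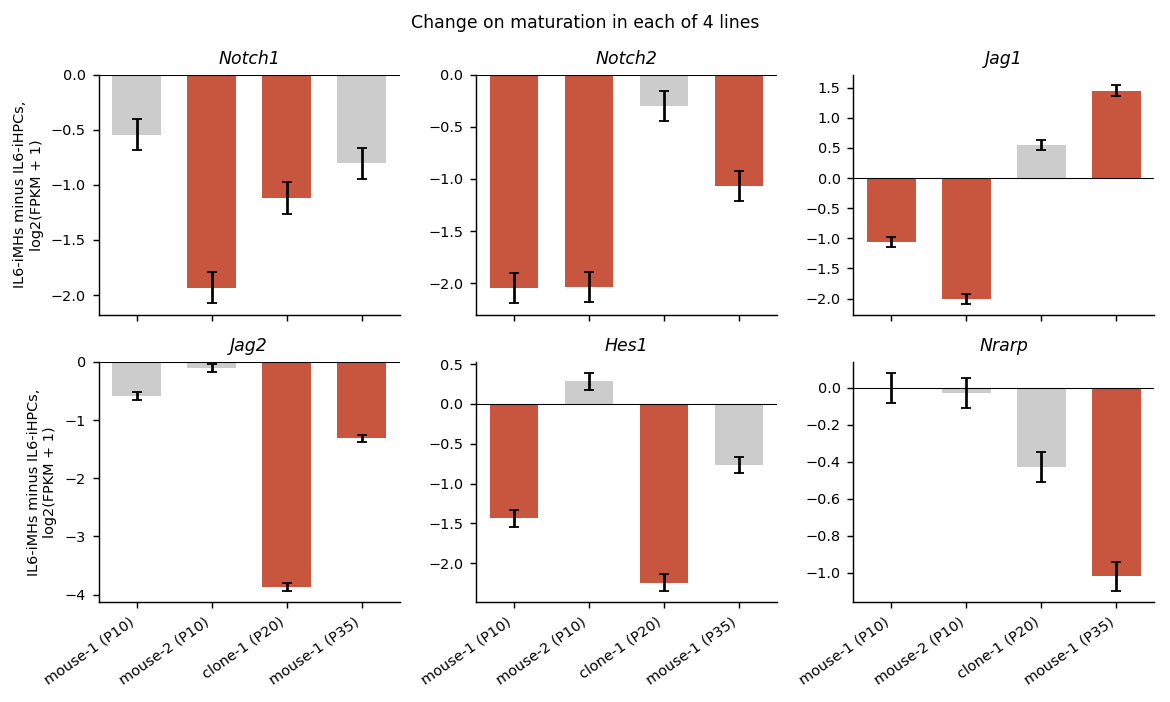
Change of each tested member from IL6-iHPCs to IL6-iMHs in each of the 4 lines, on the log2(FPKM + 1) scale with SE bars, red where called and grey where not. Jag1 is lower in the passage 10 lines (-1.06 and -2.002) and higher in mouse-1 passage 35 (1.45).

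IL6-iMHs kept more receptor and ligand transcript than hepatocytes. Over the 4 lines 3 of 6 members tested were called higher and none lower, beside 32.6% of all genes (24.8% higher and 7.79% lower), and 5 by voom on reads, where 39.1% of all genes were called higher. Notch1 was higher by 2.32 (SE 0.111, limma adjusted p = 6.67e-18), Jag1 by 2.23 (SE 0.0684, limma adjusted p = 9.16e-23) and Notch2 by 1.68 (SE 0.116, limma adjusted p = 4.69e-14), and each was called higher in every line by itself, where 32.6%, 25.2%, 45.3% and 35.2% of all genes were called in mouse-1 passage 10, mouse-2, clone-1 and mouse-1 passage 35. With quantile normalization the Notch2 call was lost over the 4 lines (0.91) and in mouse-1 passage 10 (0.64), mouse-2 (0.70) and mouse-1 passage 35 (0.90), and the Notch1 call was lost in mouse-2 (0.80), while Jag1 was called higher in every line (1.42 to 2.95). Hes1 differed by 0.02 (SE 0.0838, limma adjusted p = 0.831), a value whose sign turned under other settings. The IL6-iMHs of mouse-1 passage 10 had the lowest Hes1 of all groups (3.30 ± 0.677 FPKM, SD, n = 3), a difference from the hepatocytes of -0.83 on the log2 scale (limma adjusted p = 3.59e-08) with no overlap, which passed 2-fold with quantile normalization (-1.403).

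In liver, Notch2 and Notch1 lay at 0.988 to 6.12 FPKM, and the group means of the ratio of Notch2 to Notch1 were 1.22 to 2.21. Single samples varied more, with a ratio as low as 0.80 at 6 h and from 1.28 to 3.85 at 3 days. Notch2 at 3 and 7 days and Notch1 and Nrarp at 7 days were higher than in Normal liver at an adjusted p under 0.05 but under 2-fold, and Hes1 was called lower at 14 days. With quantile normalization all 3 differences at 7 days lost significance (Notch1 0.36, Notch2 0.36 and Nrarp 0.28, limma adjusted p from 0.103 to 0.208), as did Hes1 at 14 days (-1.03, limma adjusted p = 0.0619), while Notch2 at 3 days kept it (0.65, limma adjusted p = 0.0142). The comparisons with Normal liver asked whether the members moved as the liver regrew. By limma 0 of 4 members tested were called at 6 h, 24 h, 3 days and 7 days, and 1 (Hes1, lower) at 14 days. Of all genes tested, 16.3% were called at 6 h, 7.90% at 24 h, 5.82% at 3 days, 8.84% at 7 days and 2.98% at 14 days (2.00% lower). The members with an unadjusted p under 0.05 numbered 0, 0, 1, 3 and 3 in the same order. By voom on genes with at least 10 reads in 3 samples, which takes in all 9 members, 1 (Heyl), 0, 1 (Notch2), 1 (Nrarp) and 0 were called, where 26.6%, 11.7%, 9.58%, 16.3% and 7.29% of all genes were.

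Notch2 was 2.64, 1.95 and 1.89 FPKM in Normal liver, 1.74, 2.01 and 1.20 FPKM at 6 h and 2.32, 2.15 and 3.42 FPKM at 24 h. It was 3.04, 6.12 and 4.34 FPKM at 3 days, 3.41, 4.41 and 3.75 FPKM at 7 days and 3.38, 3.19 and 4.08 FPKM at 14 days. All samples from 3 days on lay above all Normal samples. The difference was 0.77 at 3 days (SE 0.193, limma adjusted p = 0.00904), 0.62 at 7 days (SE 0.193, limma adjusted p = 0.0239) and 0.53 at 14 days (SE 0.193, limma adjusted p = 0.0739), each under 2-fold. By voom it was 1.02 at 3 days (adjusted p = 0.0102), just over 2-fold, as were 5.99% of all genes in that test.

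Notch1 was 2.27, 1.45 and 1.21 FPKM in Normal liver and 3.40, 3.07 and 2.61 FPKM at 7 days, with no overlap and a difference of 0.62 (SE 0.177, limma adjusted p = 0.0152). In the other groups it lay between 0.988 and 2.89 FPKM. The summed level of 12 endothelial markers was also highest at 7 days, 193 to 295 FPKM against 146 to 156 FPKM in Normal liver, and that of 8 Kupffer cell markers was 970 to 1414 FPKM against 166 to 267 FPKM. Their part in the day 7 values was not tested.

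The targets in liver varied widely within groups. Hes1 was 6.36, 14.3 and 7.36 FPKM in Normal liver, 11.3, 7.48 and 6.74 FPKM at 6 h, 6.83, 5.04 and 12.6 FPKM at 24 h, 5.31, 12.9 and 9.46 FPKM at 3 days and 8.21, 7.17 and 6.56 FPKM at 7 days. At 14 days it was 3.06, 1.91 and 5.75 FPKM, below all Normal samples. The difference at 14 days was -1.19 (SE 0.371, limma adjusted p = 0.0390). This call was lost without Normal liver sample 2 (-0.87) or sample 3 (-1.30) and without PHX-D14 sample 1 (-1.15) or sample 2 (-0.91).

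Nrarp was 0.171, 0.542 and 0.602 FPKM in Normal liver and 1.72, 0.757 and 1.02 FPKM at 7 days, with no overlap. Its difference at 7 days was 0.58 (SE 0.177, limma adjusted p = 0.0224) and did not reach 2-fold, while by voom it was 1.52 (adjusted p = 0.0263), where 13.3% of all genes were called higher. The endothelial and Kupffer sums above were higher than in Normal liver at 7 days too. Mean Nrarp was also above that of Normal liver (0.438 FPKM) at 6 h (0.632 FPKM) and 14 days (0.907 FPKM). At those times both sums were lower than in Normal liver, and their part in the Nrarp values was not tested.

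The other members were too low in liver for the test. Jag1 was 0.542, 0.329 and 0.384 FPKM in Normal liver and 0.907, 0.530 and 0.889 FPKM at 6 h, and reached 1.25 FPKM in 1 sample at 3 days. Heyl was 0.604, 0.273 and 0.454 FPKM in Normal liver, 0.128, 0.267 and 0.0526 FPKM at 6 h and 0.736, 0.612 and 0.609 FPKM at 7 days. All 6 h samples lay below the Normal samples, and by voom Heyl was called lower at 6 h, with a difference of -1.75 (SE 0.599, adjusted p = 0.0257), as were 20.5% of all genes in that test. The summed level of the 12 endothelial markers was also lower at 6 h, 88.7 to 104 FPKM against 146 to 156 FPKM in Normal liver, as was that of the 8 Kupffer cell markers, 58.6 to 119.7 FPKM against 166 to 267 FPKM, and their part in the 6 h values was not tested. Hey1 lay between 0.0367 and 0.0700 FPKM at 6 h and between 0.364 and 0.490 FPKM at 7 days, against 0.101 to 0.308 FPKM in Normal liver. Notch3 ranged from 0.137 to 0.654 FPKM and Jag2 had 2 to 20 reads per sample. Hey1 and Heyl, nearly absent from the cells, were thus found in liver. The endothelial, Kupffer cell and stellate and mesenchymal marker sums were also higher in liver than in any cell group, and their part in these values was not tested.

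**Figure D4:**
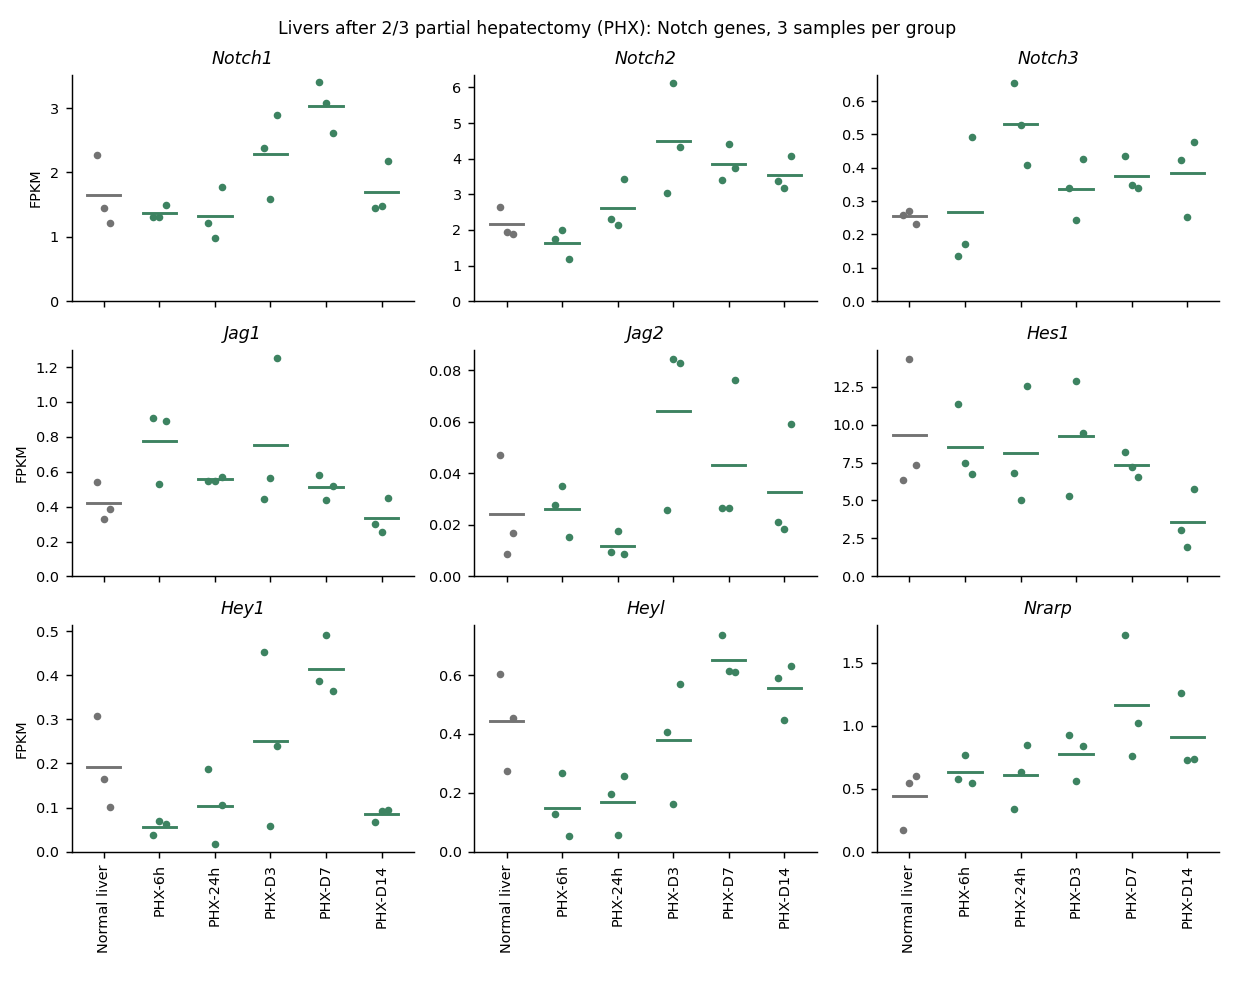
FPKM (linear axis from 0, scaled per gene) of the members in each of the 18 liver samples by time after PHX, with a point per sample and a line at the group mean. Notch2 at 3, 7 and 14 days lies above all Normal samples, and Hes1 at 14 days lies below them.

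Of 65 further genes of the pathway, 54 were tested in cells and 48 in liver. At D3, 34 were called higher and 2 lower, and at D14, 39 were called higher and 2 lower than in hepatocytes, in the passaged lines 38 and 2, on maturation 1 and 19, and in IL6-iMHs against hepatocytes 24 and 3. In the same order, 53.9%, 50.0%, 48.1%, 6.68% and 24.8% of all genes tested were called higher and 12.1%, 12.9%, 11.3%, 21.4% and 7.79% lower. Their median difference was 1.73 at D14 and 1.55 in the passaged lines against 1.00 and 0.93 for all genes, and 1.76 and 1.63 with Dlk1 and Dlk2, at 0 in hepatocytes, set to their lower bounds. On maturation the median was -0.70 against -0.40 for all genes. In liver 1 was called higher and 8 lower at 6 h, 0 and 3 at 24 h, 0 and 2 at 3 days, 2 and 2 at 7 days and 0 and 2 at 14 days, beside 16.3%, 7.90%, 5.82%, 8.84% and 2.98% of all genes called in either direction.

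Among other ligands, Dlk2, a Delta-like protein that lacks the domain by which canonical ligands bind Notch, had 0 reads in hepatocytes and a mean of 30.2 FPKM in the passaged lines, at least 1257-fold higher, and 11.2 FPKM in IL6-iMHs. On maturation Dlk2 differed by 1.03 in mouse-1 passage 10, -0.86 in mouse-2, -1.80 in mouse-1 passage 35 and -2.67 between the samples labelled clone-1. Its relative Dlk1, a fetal liver protein, had 0 reads in hepatocytes and 1.49 FPKM at D14, at least 108-fold higher. Dll1, a canonical ligand, was 0.370 ± 0.0496 FPKM in hepatocytes and 3.50 ± 0.445 FPKM in IL6-iHPCs-clone-1 (SD, n = 3). Dll4, the ligand of endothelial cells, was at most 0.713 FPKM on average in any cell group, and in liver it was 1.37 ± 0.194 FPKM in Normal and 0.196 ± 0.176 FPKM at 6 h (SD, n = 3), when the endothelial marker sum was also lower (88.7 to 104 FPKM against 146 to 156 FPKM). Notch4, a receptor of endothelial cells, was at most 0.568 FPKM in cells and 0.771 FPKM in liver.

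The sugars that Notch carries are set by Pofut1, which adds fucose, and by the Fringe enzymes, which extend it. In the passaged lines 1 of 4 tested enzymes was called higher, where 48.1% of all genes were. It was Pofut1 (8.33 against 2.94 FPKM, difference 1.17, SE 0.0586, limma adjusted p = 9.41e-18). In liver Lfng was called higher at 7 days, 6.36 against 2.19 FPKM (difference 1.20, SE 0.174, limma adjusted p = 8.92e-05), and Rfng lower at 6 h, 3.79 against 9.04 FPKM (difference -1.04, SE 0.204, limma adjusted p = 0.000627).

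Of the genes for receptor cleavage, 5 of 9 tested were called higher at D14 and 1 lower, near the shares of all genes (50.0% and 12.9%). Adam10, which sheds the outer part of bound receptors, went from 1.26 to 77.5 FPKM (difference 5.12, SE 0.0892), and Ncstn, a subunit of γ-secretase, from 9.86 to 51.6 FPKM (2.28, SE 0.0775). Psen2, a catalytic subunit of γ-secretase, was lower in the passaged lines, 5.53 against 82.9 FPKM (-3.70, SE 0.0638). On maturation Adam10 was called lower, 12.7 against 52.7 FPKM (-2.07, SE 0.0446).

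In the nucleus, 7 of 8 genes of the activating complex and 12 of 13 corepressors were called higher at D14, where 50.0% of all genes were, and 5 and 7 were called lower on maturation, where 21.4% of all genes were. Rbpj, the DNA-binding partner of the cut receptor, went from 1.19 to 14.0 FPKM at D14 (2.78, SE 0.109) and from 14.7 to 4.34 FPKM on maturation (-1.49, SE 0.0546). The acetyltransferase Ep300 went from 0.945 to 30.1 FPKM at D14 (4.01, SE 0.164). The corepressor Ctbp2 differed by 4.33 (SE 0.0750) at D14 and by -2.09 (SE 0.0375) on maturation. Rbpj binds DNA with corepressors in the absence of the receptor domain and with Ep300 in its presence.

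Among ubiquitin and endocytic regulators, 10 of 14 tested were called higher at D14, where 50.0% of all genes were. Numbl, an endocytic adaptor of the Numb family, differed by 4.21 (SE 0.0811), and Dtx3, of the Deltex ubiquitin ligases, by 3.71 (SE 0.0676). Mib1, the ligase that lets ligand-bearing cells pull on the receptor, was called lower on maturation, 5.65 against 15.8 FPKM (-1.42, SE 0.0595). In liver Neurl3 was called lower at 6 h, 0.752 against 4.20 FPKM (-1.55, SE 0.225, limma adjusted p = 5.52e-05).

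Of 8 other targets listed, 3 were tested. Sox9, a factor of bile duct and progenitor cells, went from 1.29 to 60.6 FPKM at D14 (4.76, SE 0.0987) and from 19.3 FPKM in the passaged lines to 2.28 FPKM in IL6-iMHs (-2.31, SE 0.0494). Hes6, of the Hes family, was called lower at 6 h in liver, 8.60 against 87.8 FPKM (-3.16, SE 0.487, limma adjusted p = 9.27e-05), and Hes6 was also called lower at 24 h, 3 days and 7 days (17.2, 26.3 and 32.6 FPKM). In culture Hes6 was lower at D14 than in hepatocytes, 11.05 against 91.9 FPKM (-2.94, SE 0.0946). The biliary marker sum given above, a list without Sox9, was also higher at D14 than in hepatocytes and lower in IL6-iMHs than in the passaged lines. Mean Sox9 was lower over the passaged lines than at D14. The sum was 4000 to 4427 FPKM at D14 and 7366 to 10951 FPKM in the passage 10 lines. In IL6-iHPCs-clone-1 the sum was 4396 to 5198 FPKM, and in IL6-iHPCs of mouse-1 passage 35 it was 2695 to 2790 FPKM. Its part in the Sox9 values was not tested.

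**Figure D5:**
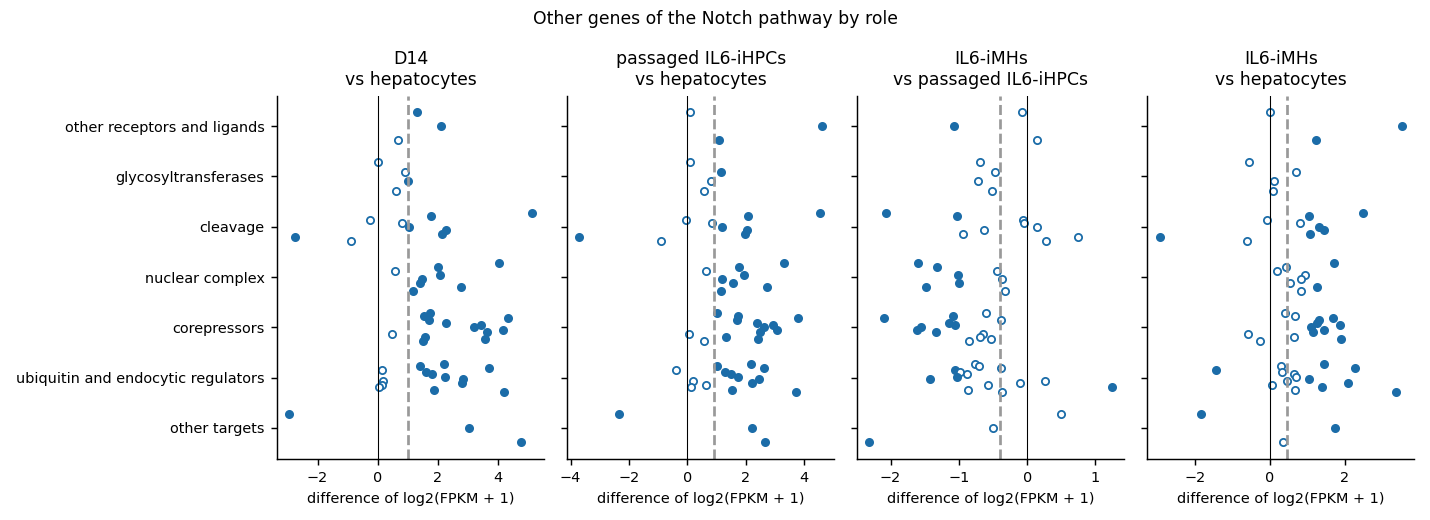
Difference of the 54 further pathway genes tested in cells, by role, on the log2(FPKM + 1) scale, filled where called, with the median of all genes as a dashed line. Most corepressors and nuclear factors lie above the line in culture and below it on maturation.

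The members' patterns were last compared with each other and with all genes, by Pearson's r over the 11 cell group means on the log2 scale, given as a description, since the groups share libraries, lines and a common shift of all genes. Notch1 and Notch2 had r = 0.82, Notch2 and Jag1 had r = 0.80, and Jag2 and Nrarp had r = 0.82, while Hes1 was at most 0.69 with any other member. Among all genes, those most like Notch1 were Kif1c (0.98), Kif3b (0.98) and Abcb1a (0.98), and those most like Notch2 were Mapk8ip3 (0.99), Htt (0.99) and Arid1b (0.99). Jag1 was nearest to Ahdc1 (0.96), Stau1 (0.95) and Fbxo10 (0.95), and Jag2 to Syt7 (0.99), Car12 (0.98) and Cdc42ep3 (0.98). Hes1 was nearest to Pak1ip1 (0.94), Mina (0.93) and Nt5e (0.93), and Nrarp to Lefty1 (0.98), Il1f6 (0.97) and Htra1 (0.97).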

How the data were processed

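Values of 33 cell samples and 18 liver samples were used, from poly(A) RNA sequencing. Per the labels' processing notes the reads were aligned to mm10 with TopHat 1.4.1 and processed with Cufflinks 1.3.0. The deposited values were taken as FPKM, a unit that the sources used here do not name and that the values fit, since low values of a gene are whole multiples of what 1 read is worth. Whole reads were recovered this way for 18826 genes in cells and 17327 in liver (all those listed once with any read), up to a common factor, so depth (49290999 to 88832909 in cells, 52039183 to 79220592 in liver) counts reads or read pairs. Intervals and floors cover counting error only.

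Samples were grouped by their labels. Genes with at least 1 FPKM in 3 samples (12328 in cells, 11114 in liver) were fitted on log2(FPKM + 1) with limma 3.58.1 (trend) in R 4.3.3, with all groups of a table in 1 fit and Benjamini-Hochberg adjustment over all genes tested. The main fit had no term for the replicate number. On simulated data the fit recovered 200 of 200 changed genes with 0 wrong for D3 (12328 genes) and 193 of 200 with 1 wrong for 6 h after PHX (11114 genes). Genes whose reads were compared with limma's voom passed the same filter or had at least 10 reads in 3 samples. Other scalings, filters, pseudocounts and left-out samples were tried.

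The members and lists were chosen with earlier results of these data known. Named besides the members were, per role, the 2 highest and 2 lowest called differences, 5 fixed genes (Notch4, Dll1, Dll4, Rbpj and Sox9) and the 3 genes most like each member, apart from some that are not reported here. Hes6 beyond the 6 h value was added after its values were seen. Sequences came from RefSeq (GRCm38.p6, 6 of 9 members matched) and gene positions from GENCODE. A table of cells at day 7 was not used here.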

Additional observations from a re-analysis of the deposited data

Results flagged for a closer look

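The change from IL6-iHPCs to IL6-iMHs differed between the 4 lines for all 6 members tested (limma F test with Benjamini-Hochberg adjustment), as it did for 65.2% of all genes tested. Jag2 had a span between its highest and lowest line of 3.77 on the log2(FPKM + 1) scale, given with no p because Jag2 was tested only through its high IL6-iHPC samples of clone-1 and mouse-1 passage 35, and Jag1 had one of 3.45 (adjusted p = 1.97e-20). The span of Hes1 was 2.53 (adjusted p = 1.60e-14), that of Notch2 was 1.74 (adjusted p = 3.81e-09), that of Notch1 was 1.39 (adjusted p = 1.13e-06) and that of Nrarp was 1.02 (adjusted p = 2.27e-09). Jag1 and Hes1 moved in opposite directions in different lines, Jag1 by -2.002 in mouse-2 and 1.45 in mouse-1 passage 35, and Hes1 by -2.25 between the samples labelled clone-1 and 0.29 in mouse-2. The samples labelled clone-1 go against a shared origin by their Y-linked reads, and without them 5 of the 6 members still differed between lines, Notch2 being lost.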

How the results depend on the processing

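Of 961 values of single members under other settings, 865 kept their direction and side of the threshold, 25 lost a call, 28 gained one and 43 turned in sign, among them 2 of a called value (Hes1 in passaged IL6-iHPCs). The causes were not tested. Scaling moved the median of all genes: it was 1.14 at D3, 1.00 at D14 and 0.93 over the passaged lines, 0.11, 0.09 and 0.13 with quantile normalization, and -0.32, -0.31 and -0.30 with equal medians. The share of calls that were higher went from 81.6% to 53.6% and 35.5% at D3, from 79.4% to 52.8% and 36.8% at D14, from 81.0% to 54.5% and 35.5% over the passaged lines, from 23.8% to 52.0% and 70.4% on maturation, from 76.1% to 54.0% and 38.5% in IL6-iMHs against hepatocytes, from 29.3% to 52.9% and 55.8% at 6 h, from 88.4% to 72.4% and 74.4% at 7 days and from 32.9% to 47.6% and 45.1% at 14 days. Levels near 1 FPKM, where most liver members lie, limit what the log2 scale can show. The count of members called at D3 and at D14 was 7 each by voom with at least 10 reads, a setting chosen after seeing the data. In passaged IL6-iHPCs it was 3 with equal medians and 3 without clone-1. On maturation it was 0 with equal medians, 1 with quantile normalization and 2 without clone-1. In IL6-iMHs against hepatocytes it was 5 with no fold threshold and 5 by voom with at least 10 reads. With quantile normalization the Notch2 call of that comparison was lost (0.91). In liver it was 1 at 6 h by voom with at least 10 reads; at 3 days 1 with no fold threshold and 1 by either voom; at 7 days 1 with log2(FPKM + 0.1), 3 with no fold threshold and 1 by either voom; and at 14 days 0 with no filter, with quantile normalization and by either voom.

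With the replicate number as a block, the count at 14 days after PHX was 0 (Hes1 lost), and no other count of members moved. Most same-numbered samples did not deviate together (13.3% to 21.8% of pairs with a correlation over 0.1). The highest correlation of a pair was 0.573 in cells and 0.386 in liver, and a pairing between particular groups was not tested. Leaving out 1 sample at a time gave 4 to 5 members in passaged IL6-iHPCs, 5 to 6 members that differed between lines, 0 to 1 at 14 days, and the same counts elsewhere. The Hes1 call at 14 days was lost without Normal liver sample 2 or 3 or PHX-D14 sample 1 or 2, with values from -1.51 to -0.87 over the 6 omissions.

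These log2 differences turned in sign. With equal medians, Hes1 was -0.67 in IL6-iMHs against hepatocytes, -0.18 over the passaged lines and 0.22 at 6 h; Jag1 was 0.28 on maturation; Jag2 was -0.62 at D3, -0.84 at D14 and -0.39 in IL6-iMHs against hepatocytes; Notch1 and Notch2 were 0.16 and 0.035 at 6 h; and Nrarp was -1.35 at D3, -1.23 at D14, -0.61 over the passaged lines, 0.18 on maturation and -0.43 in IL6-iMHs against hepatocytes. With quantile normalization, Hes1 was -0.57 in IL6-iMHs against hepatocytes, -0.015 over the passaged lines and 0.21 at 6 h, Jag1 was 0.24 on maturation, Notch1 and Notch2 were 0.15 and 0.024 at 6 h, and Nrarp was -0.54 at D3, -0.59 at D14, -0.013 over the passaged lines and -0.21 in IL6-iMHs against hepatocytes. In IL6-iMHs against hepatocytes, Hes1 was -0.0083 by voom, -0.0089 by voom with at least 10 reads and -0.010 without clone-1, and Nrarp was -0.77 by either voom and -0.070 without clone-1. Leaving out 1 sample gave Hes1 from -0.088 to 0.10 in IL6-iMHs against hepatocytes, -0.28 to 0.25 at 6 h, -0.51 to 0.14 at 24 h, -0.27 to 0.31 at 3 days and -0.45 to 0.079 at 7 days, and Notch1 from -0.26 to 0.026 at 6 h and -0.082 to 0.20 at 14 days. The members' day 7 values in culture were not analysed here, and their alternatives were not run.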
